A study of Saccharomyces cerevisiae with 40 samples.

Results

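Ribosome biogenesis genes were taken here as the genes of *Saccharomyces cerevisiae* whose standard name is NOP, UTP, RRP, NSA or NOC followed by a number only. The name rule, which uses no measured value, found 58 genes among the 6600 that all 4 count tables list. By function, 6 belong to the UTP-A and 4 to the UTP-B subcomplex of the small-subunit (SSU) processome, 8 are UTP-C or other UTP proteins, 11 act elsewhere in 40S assembly, 18 act in 60S assembly, 4 are core proteins of small nucleolar ribonucleoproteins (snoRNPs) and 7 are subunits of the RNA exosome. They lie on 14 chromosomes of the R64 assembly, each with 1 coding exon and none overlapping another annotated gene, and their coding lengths run from 177 bp (*NOP10*) to 7482 bp (*UTP20*).

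Yeast cells make ribosomes in the nucleolus, where a long precursor rRNA is bound by the SSU processome, cut, and chemically modified by snoRNPs that carry guide RNAs. The UTP-A and UTP-B subcomplexes bind the 5′ part of the precursor first, 60S factors then build the large subunit, and the exosome trims and degrades precursor ends and spacers. Genes for these proteins are known to be transcribed strongly in growing cells and to be turned down together when cells are stressed or starved.

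The strains were *def1Δ*, *dhh1Δ* (each lacking the named gene) and WT cells of the W303 background, grown in rich glucose medium (YPD) to log phase. Def1 is known for removing RNA polymerase II from damaged DNA, and Dhh1 is a helicase of mRNA decay. Steady-state total RNA was sequenced from untreated cells in 2 *def1Δ* and 2 WT libraries. For RATE-seq, cells were given 4-thiouracil (4tU), which enters new RNA, and captured RNA was sequenced after 6, 9, 24 and 90 min in 2 libraries of *def1Δ* and 2 of WT per time, and after 12 min in 1 library of each. For ribosome profiling, cells were treated with cycloheximide, with 3 libraries of input RNA each of *def1Δ*, *dhh1Δ* and WT cells, 3 footprint columns each of *def1Δ* and WT, and 3 footprint columns of 1 labelled *dhh1Δ* sample. The footprint samples are titled as sequencing runs of 1 library per strain (3 runs for *def1Δ* and WT, 1 for *dhh1Δ*), and the numbered columns could be matched to a strain but not to a run. Columns of 1 strain differed by a chi-square of 5.04 to 37.6 per gene, above counting noise, which gives about 1. The study calls the steady-state and RATE-seq samples biological replicates. Whether the profiling libraries came from separate cultures, and whether each strain was 1 clone, is not stated, so p-values measure only the spread between these libraries or columns, which for footprints and efficiency may be technical.

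Steady-state libraries held 9954503 to 14243535 counts each and RATE-seq libraries 6026474 to 16318100. Profiling was deeper for input RNA (14894073 to 45654269 counts) than for footprints (1984692 to 8635312 counts), and the precision of a level follows the count behind it. *DEF1* had 2 counts in each *def1Δ* steady-state library, against 997 to 1959 in WT, and 0 to 4 in *def1Δ* RATE-seq libraries, against 620 to 2378 in WT. *DHH1* had 62 to 113 footprints in the *dhh1Δ* columns, against 1176 to 1822 in WT, while its input-RNA counts were 2152 to 2614 in *dhh1Δ*, against 3140 to 9732 in WT. *def1Δ* libraries stood apart in 2 ways beyond the deleted gene. Across all genes of chromosomes I and III, the level of the median gene in each *def1Δ* library of RATE-seq, input RNA and footprints was lower than the WT mean by 0.72 to 1.04 on the log2 scale, which was not so in steady-state RNA. In steady-state RNA, the median of 27 mitochondrially encoded genes was -6.39 (log2, *def1Δ* over WT). The part of either in the results was not tested, beyond the values given with *RRP7* and *RRP43*. Every fold change below is relative to the other genes of the library and says nothing of RNA per cell.

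Levels were compared between genes as CPM (a gene's share of its library, per 1e6 counts, scaled by TMM) and divided by coding length in kb. In WT steady-state RNA the 58 genes had a median of 12.6 CPM per kb, against 11.6 CPM per kb for 5651 genes of known coding length, and 31 of the 58 lay above that median. *NOP10*, an H/ACA snoRNP protein, was highest at 1389 CPM per kb, and *NOP1*, the methyltransferase of box C/D snoRNPs, was next at 345 CPM per kb. *NOP56*, a box C/D core protein, and the exosome ring subunit *RRP42* followed at 73.3 and 71.9 CPM per kb, and their 2 libraries overlapped. At the other end, the 40S factor *RRP36* had 2.08 CPM per kb and the 60S factor *NOP8* 2.15 CPM per kb, and their 2 libraries overlapped as well. Within the other groups the highest and lowest levels were 56.4 CPM per kb for *UTP10* and 7.83 CPM per kb for *UTP9* in UTP-A, and 26.4 CPM per kb for *UTP21* and 6.03 CPM per kb for *UTP6* in UTP-B. They were 44.6 CPM per kb for *UTP22* and 5.72 CPM per kb for *UTP14* among the other UTP genes, and 33.9 CPM per kb for *NOC4* at the top of the 40S factors. *NOP7* led the 60S factors with 29.2 CPM per kb. *NOP58* was the lowest snoRNP gene with 51.6 CPM per kb, and *RRP43* the lowest exosome gene with 8.26 CPM per kb.

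What the name rule did not use, and many of the 58 genes share, is promoter sequence. The 250 bases before each annotated start codon were read from the RefSeq R64 genome and searched for exact matches, on both strands, to 2 elements known from ribosome biogenesis genes: PAC (GCGATGAG) and RRPE (GAAAAATTT). PAC was found before 24 of the 58 genes (41.4%) and before 230 of 6020 genes overall (3.82%). RRPE was found before 29 of the 58 genes (50.0%) and before 354 genes overall (5.88%), and both stood before 12 of the 58 (20.7%), against 1.30% overall. PAC matches lay 89 to 229 bases before the start codon (median 124 bases). The 5 shortest stretches that hold both elements are printed 5′ to 3′ on the strand of the gene, with the matches in capitals, to show how close the elements lie. AAATTTTTC is RRPE read on the opposite strand.

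RRP8: aggcctGAAAAATTTtGCGATGAGctcaaa
UTP21: ttttgaGAAAAATTTcGCGATGAGattgct
NSA2: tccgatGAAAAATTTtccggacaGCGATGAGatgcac
UTP14: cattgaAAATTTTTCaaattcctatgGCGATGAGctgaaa
NOP14: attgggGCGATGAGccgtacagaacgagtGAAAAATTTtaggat

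The stretch of *RRP8*, an rRNA methyltransferase gene, is chrIV:611968-611997 (+), that of *UTP21* is chrXII:937333-937362 (-), that of *NSA2*, a 60S factor, is chrV:414299-414335 (-), that of *UTP14* is chrXIII:82969-83008 (+) and that of *NOP14*, a 40S factor, is chrIV:190707-190750 (-). In *RRP8* and *UTP21* the starts of the 2 elements are 10 bases apart, with 1 base between the matches. In *NOP14* the order is turned round, with PAC farther from the gene. Of the genes that lead the comparisons below, *UTP7* and *UTP10* have PAC alone, *NOP1*, *NOP56*, *NOP58*, *UTP30* and *RRP7* have RRPE alone, and *NOP10*, *UTP20*, *UTP22* and *RRP43* have neither. A match describes the sequence and is not a measured binding site.

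The steady-state comparison asked which transcripts change in amount without *DEF1*. Ribosome biogenesis genes were lower in *def1Δ* cells: 19 of 58 passed the test downward and 0 upward, and the median log2 fold change was -0.57, against 0.04 over the 6055 genes tested. A gene passed where the adjusted p of edgeR's quasi-likelihood test was under 0.01, and 6 of the 19 also fell by more than 2-fold. Over all genes, 16.4% passed downward and 15.4% upward. At an unadjusted p under 0.05, 35 of the 58 were lower and 1 higher, and DESeq2 called 18 lower and 0 higher. The 58 genes together held 1825 and 1697 normalized CPM in *def1Δ*, against 2793 and 2752 normalized CPM in WT, so the groups did not overlap.

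All 4 snoRNP core genes fell. *NOP1* (YDL014W, chromosome IV, 427364 to 428347) had 89.5 and 80.2 CPM in *def1Δ*, against 411 and 269 CPM in WT. These groups were far apart, although the WT libraries differed from each other, and *NOP1* fell by 2.00 ± 0.21 on the log2 scale (SE, n = 2 each, edgeR adjusted p = 0.000206). *NOP56* had 54.7 and 47.0 CPM in *def1Δ*, against 112 and 110 CPM in WT (log2 fold change -1.13 ± 0.13, edgeR adjusted p = 0.000345). *NOP10* had 112 and 121 CPM in *def1Δ*, against 271 and 221 CPM in WT (-1.08 ± 0.15, edgeR adjusted p = 0.000712). *NOP58*, the partner of Nop56 on box C/D RNAs, fell least of the 4, with a log2 fold change of -0.76. In each of the 4, both *def1Δ* libraries lay under both WT libraries.

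Among the UTP proteins, *UTP30*, which encodes a protein of the ribosomal L1 family, had 2.18 and 2.43 CPM in *def1Δ*, against 8.11 and 6.46 CPM in WT (-1.64 ± 0.26, edgeR adjusted p = 0.00118). *UTP23*, a PIN-domain protein gene, had 4.88 and 5.25 CPM in *def1Δ*, against 10.9 and 11.3 CPM in WT (-1.13 ± 0.18, edgeR adjusted p = 0.00142). Both are expressed at a low level, and neither overlapped between strains. With *UTP20* they were the 3 that fell among the 8 UTP-C and other UTP genes. In UTP-A 3 of 6 fell, with a median of -0.51, and in UTP-B 2 of 4, with a median of -0.50. *UTP10* had 196 and 170 CPM in *def1Δ*, against 291 and 308 CPM in WT, and *UTP20*, the largest of these proteins, had 145 and 137 CPM in *def1Δ*, against 240 and 254 CPM in WT. *UTP10* thus fell by 0.71 and *UTP20* by 0.81 on the log2 scale. *UTP7*, a WD-repeat protein of the SSU processome, had the highest fold change: 22.1 and 25.7 CPM in *def1Δ*, against 15.8 and 17.0 CPM in WT. Its 2 *def1Δ* libraries were above both WT libraries, but the change of 0.54 ± 0.14 did not pass (edgeR adjusted p = 0.0134). The other 4 at the upper end, *NOP14*, *UTP22*, *UTP14* and *UTP13*, had log2 fold changes between 0.07 and 0.21 and did not pass.

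Of the 18 genes of 60S assembly 2 fell, with a median of -0.51. *RRP1*, needed for processing of the 27S precursor, had 2.28 and 2.74 CPM in *def1Δ*, against 7.40 and 6.54 CPM in WT (-1.45 ± 0.25, edgeR adjusted p = 0.00177), and *NOP7* was the other. *RRP15* had 0.934 and 0.532 CPM in *def1Δ*, against 1.93 and 2.50 CPM in WT. Its log2 fold change of -1.64 did not pass at that depth (edgeR adjusted p = 0.0222). Of the other 40S factors 3 of 11 fell, *NOC4*, *NOP6* and *RRP9*, and of the exosome genes 2 of 7, *RRP42* and *RRP46*. The counts rest on the *def1Δ* spread: without either *def1Δ* library 0 of the 58 passed, while without either WT library 22 or 23 fell, and the median stayed between -0.60 and -0.50.

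**Figure D1:**
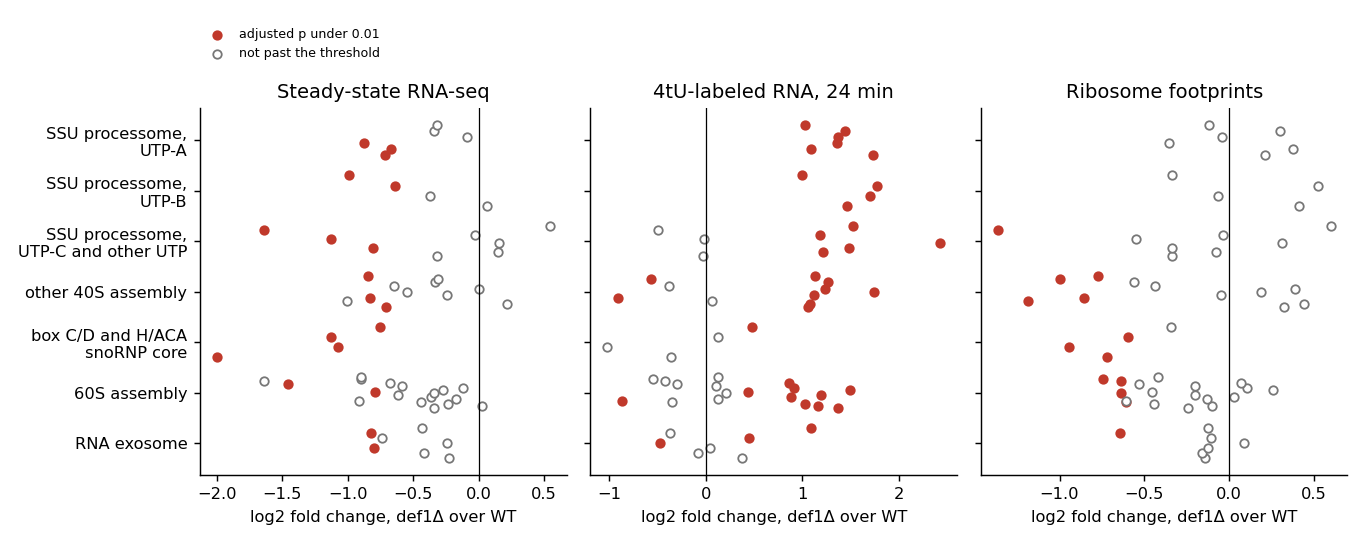
Log2 fold changes of the ribosome biogenesis genes in *def1Δ* over WT by functional group, in steady-state RNA, in RNA labeled for 24 min and in ribosome footprints, with 1 point per gene and filled points past an adjusted p of 0.01. All 4 snoRNP genes are filled and left of 0 in steady-state RNA, and all UTP-A and UTP-B genes are filled and right of 0 at 24 min.

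Many genes of the same pathway outside the name rule were also lower in steady-state RNA. Of 95 other ribosome biogenesis factors 36 fell and 1 rose, with a median of -0.59, and of 6 other exosome subunits and cofactors 2 fell. All 7 RNA polymerase I subunit genes fell, with a median of -1.01. Of 12 stress marker genes, which encode chaperones and trehalose enzymes among others, 11 rose and 1 fell, with a median of 2.57. These lists were fixed with earlier results of the data known.

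RATE-seq asked how the strains differ in newly made RNA. After 6 min of labeling, when captured RNA is mostly new, 11 of the 58 genes rose and 12 fell in *def1Δ* over WT, with a median of 0.11, against background shares of 24.3% higher and 22.1% lower over 6485 genes. After 9 min, 21 rose and 14 fell, with a median of 0.16, against 26.8% and 24.1%. A fit of only the 9 min libraries gave 5 higher and 4 lower. The 2 WT libraries of that time differed most of the RATE-seq pairs, by a chi-square of 69.6 per gene. After 24 min, 34 rose and 4 fell, with a median of 0.89, against 29.0% and 23.1%, and 27 of the 34 rose by more than 2-fold. After 90 min, 11 rose and 10 fell, with a median of 0.04, against 28.3% and 23.8%. Among the 4 times, the count of genes higher at 24 min stood farthest above its background share.

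All 6 UTP-A genes and all 4 UTP-B genes rose at 24 min, with medians of 1.36 and 1.58. They made up 10 of the 34 genes that rose, and both groups are long, with median coding lengths of 2037 and 2120 bp. At 9 min 4 of 6 UTP-A genes and all 4 UTP-B genes rose in the fit of all 4 times. In the fit of 9 min alone, only 5 of all 58 members rose. *UTP18* lost its call there, and the calls of the other UTP-A and UTP-B genes in that fit are not given. At 6 min 0 of the UTP-A and UTP-B genes passed by edgeR, with 2 higher at an unadjusted p under 0.05. *UTP22*, of the UTP-C complex, had 540 and 473 CPM in *def1Δ* at 24 min, against 103 and 85.3 CPM in WT. It had the largest fold change of the 58, 2.43 ± 0.22 on the log2 scale (SE, n = 2 each, edgeR adjusted p = 1.66e-07). *UTP21*, *RRP12*, *UTP10* and *UTP18* followed, with log2 fold changes of 1.77, 1.74, 1.73 and 1.70. Among the others, 5 of 8 other UTP genes, 7 of 11 other 40S genes, 9 of 18 genes of 60S assembly, 2 of 7 exosome genes and, of the 4 snoRNP genes, *NOP58* rose. The 4 genes that fell at 24 min were *NOP6*, *NOP15*, *RRP7* and *RRP43*, with log2 fold changes of -0.90, -0.87, -0.57 and -0.47. The *RRP7* call was lost in 3 of the 4 fits that left out 1 library of that time. *RRP7* and *RRP43* lie on chromosome III, the members of which are described with input RNA.

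By mean CPM, 24 min was the lowest of the 5 times for 4 of the 58 genes in *def1Δ* and for 39 in WT. *UTP10* in *def1Δ* had 870 and 929 CPM at 6 min, 783 and 798 CPM at 9 min, 680 CPM at 12 min, 534 and 457 CPM at 24 min, and 244 and 258 CPM at 90 min. In WT it had 785 and 703 CPM at 6 min, 723 and 408 CPM at 9 min, 402 CPM at 12 min, 162 and 136 CPM at 24 min, and 404 and 425 CPM at 90 min. The *def1Δ* level went down at each time, while the WT level was lowest at 24 min and higher again at 90 min. Summed over the 58 genes, *def1Δ* had 7475 and 7351 CPM at 24 min, against 4527 and 4610 CPM in WT. At 6 min the sums were 7998 and 8627 CPM in *def1Δ*, against 7392 and 6882 CPM in WT. At 9 min they were 8099 and 8265 CPM in *def1Δ*, against 7139 and 6038 CPM in WT, and at 12 min 8396 and 6251 CPM. At 90 min the order of the sums was turned round, with 6078 and 6318 CPM in *def1Δ*, against 7040 and 7181 CPM in WT. *NOP10* and *NOP1* had means of 147 and 327 CPM in *def1Δ* there, against 622 and 728 CPM in WT. Over the 58 genes 11 rose and 10 fell, with a median log2 fold change of 0.04. Before TMM scaling the 58 held 0.594% and 0.601% of counts in *def1Δ*, against 0.531% and 0.53% in WT, so this order depends on the scaling. The WT libraries at 24 min stood apart in stress markers too: the 12 marker genes summed to 1882 and 1553 CPM in *def1Δ* and to 2352 and 2377 CPM in WT at 24 min, while the other WT libraries had 607 to 1109 CPM. *HSP104*, a disaggregase, had 255 and 242 CPM in *def1Δ* at 24 min, against 574 and 578 CPM in WT, whose other libraries had 78.1 to 162 CPM. The part of this WT difference in the 24 min result was not tested.

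**Figure D2:**
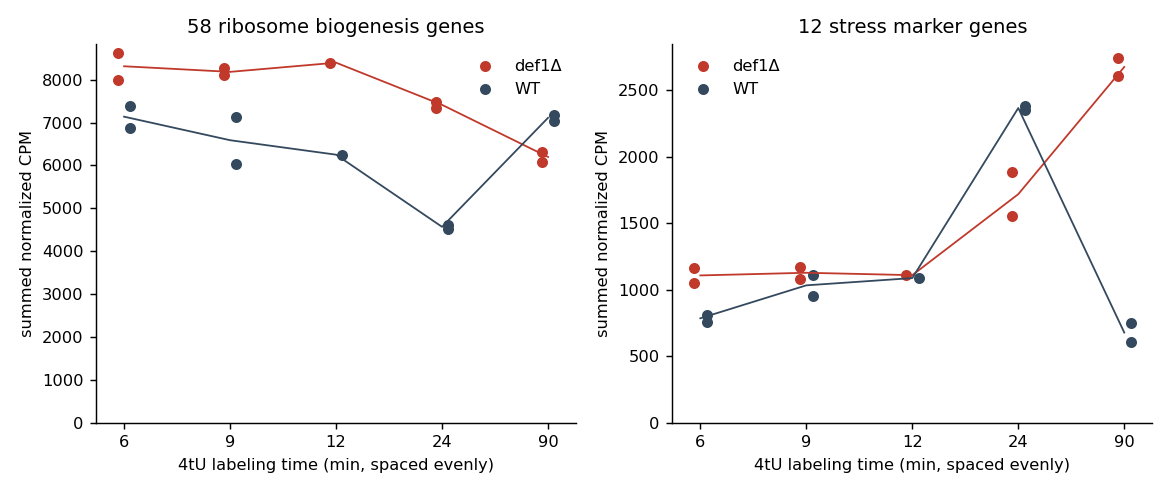
Summed normalized CPM of the 58 ribosome biogenesis genes (left) and of 12 stress marker genes (right) in 4tU-labeled RNA by labeling time in *def1Δ* and WT, with 1 point per library and lines through the means. WT has its lowest member sums, 4527 and 4610, and its highest stress sums, 2352 and 2377, at 24 min.

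Individual genes kept a direction across the labeling times. *UTP7* rose at 6, 9, 24 and 90 min: at 90 min it had 129 and 147 CPM in *def1Δ*, against 56.8 and 66.8 CPM in WT (1.16 ± 0.12, edgeR adjusted p = 3.91e-07). *UTP14*, *NOP2*, *NOP4* and *RRP3* were the other 4 that rose at all 4 times. The share of all genes that did so is not given here, so this count cannot be called particular to the members. The 9 min calls are those of the fit of all 4 times, and the fit of 9 min alone gave 5 members higher. With the trend of fold change with gene length removed (described with length below), *UTP14* did not pass at 6 min (0.30) or at 90 min (0.43). *UTP14*, which activates the helicase that frees U3 RNA, had 79.9 and 95.2 CPM in *def1Δ* at 6 min, against 46.9 and 40.6 CPM in WT. *NOP2*, a 25S rRNA methyltransferase gene, had 135 and 154 CPM in *def1Δ* at 6 min, against 84.5 and 61.7 CPM in WT. Neither overlapped between strains. *RRP5*, which acts in both subunits, had 405 and 465 CPM in *def1Δ* at 6 min, against 245 and 189 CPM in WT, and rose at 6, 9 and 24 min. With that trend removed, its 6 and 9 min log2 fold changes were -0.01 and -0.18.

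*NOP10* was the lowest of the 58 by fold change at all 4 times, passing at 6, 9 and 90 min. Its 6 min call was lost in each of the 4 fits that left out 1 library of that time, by DESeq2, and with the length trend removed. Its 9 min call was lost with the trend removed, in the fit of that time alone, and without *def1Δ* replicate 1 (-1.58) or WT replicate 2 (-0.38), and its 90 min call without *def1Δ* replicate 2. At 90 min it had 195 and 98.1 CPM in *def1Δ*, against 537 and 708 CPM in WT (-2.08 ± 0.44, edgeR adjusted p = 0.00055). Its replicates spread widely, but the strains did not overlap. *UTP30* fell at the same 3 times, with 16.8 and 20.3 CPM in *def1Δ* at 6 min, against 29.6 and 37.6 CPM in WT. Also among the 5 lowest at 6 min were *RRP7*, *RRP40* and *UTP11*, with log2 fold changes of -1.03, -0.87 and -0.775. All passed, and none lost its call in the 4 fits that left out 1 library of that time. With the length trend removed *UTP11* did not pass (-0.376), and *RRP7* lies on chromosome III. *NOP1* had 311 and 343 CPM in *def1Δ* at 90 min, against 746 and 709 CPM in WT, and fell by 1.16 ± 0.12 on the log2 scale (SE, n = 2 each, edgeR adjusted p = 2.69e-07). It fell also at 9 min. The strains did not overlap at either time. *RRP42* and *UTP20* were the other 2 of the 5 lowest at 90 min, with log2 fold changes of -1.02 and -0.93, and *RRP14*, *NOP8* and *NOP14* rose there by 1.68, 0.90 and 0.87 on the log2 scale.

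The ratio of 6 min to 90 min sets a gene's share in new RNA against its share in long-labeled RNA. In *def1Δ*, 13 of the 58 genes were higher and 22 lower at 6 min than at 90 min (median -0.29), against background shares of 32.0% and 29.6%. In WT, 8 were higher and 14 lower (median -0.23), against 26.9% and 19.3%. In both strains *UTP20*, *UTP22* and *UTP10* were among the 5 with the largest ratio. *NOP10*, *RRP17* and *NOP6* were among the 5 with the smallest, although the *NOP10* ratio did not pass in *def1Δ*. The ratio also went with length. Spearman's rho between log2 ratio and coding length was 0.765 in *def1Δ* and 0.637 in WT over the 58 genes. Over 5828 genes with a coding length it was 0.559 in *def1Δ* and 0.53 in WT. Of the 18 genes of 60S assembly, 17 had a negative log2 ratio in each strain, of which 12 passed in *def1Δ* and 7 in WT. Over all 6485 genes, 3017 had a negative log2 ratio in *def1Δ* and 2796 in WT. Of 95 other ribosome biogenesis factors, 59 had one in *def1Δ* and 68 in WT. The strains' ratios were compared only gene by gene. The ratio itself differed between strains for 4 genes, 2 in each direction, against background shares of 6.82% and 9.88%. *UTP20* had 708 and 721 CPM at 6 min and 138 and 142 CPM at 90 min in *def1Δ*, and in WT 586 and 513 CPM at 6 min and 267 and 265 CPM at 90 min. Its ratio was thus 2.35 on the log2 scale in *def1Δ*, against 1.05 in WT, a difference of 1.31 ± 0.23 (SE, n = 2 each, edgeR adjusted p = 0.000821). *NOP1* also had a larger ratio in *def1Δ*, by 0.86, while *RRP14* and *NOP16* had smaller ones, by -1.39 and -1.34. Over the 8 fits that left out 1 library, *UTP20* lost its call in 0, *RRP14* in 2, *NOP1* in 3 and *NOP16* in 7.

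Length went with these changes. Over the 58 genes, Spearman's rho between log2 fold change and coding length was 0.82 at 6 min, 0.82 at 9 min, 0.87 at 24 min and 0.36 at 90 min. Over 5828 genes with a coding length it was 0.57, 0.60, 0.62 and 0.29 at the same times. These are descriptions across genes measured in the same libraries, and genes are not replicates. At 24 min the 19 members under 1000 bp had a median of -0.36 and the 16 over 2000 bp a median of 1.36, while all genes of those sizes had -0.55 and 0.93. At 6 min 0 of the 19 short members rose and 11 fell, and 7 of the 16 long ones rose and 0 fell. At 24 min all 16 long members rose.

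With a length trend removed from each library, an alternative chosen after seeing the data, most of the early upward calls were lost. At 6 min 4 rose and 13 fell (background 20.9% and 21.8%), and at 9 min 6 rose and 11 fell (background 20.6% and 24.2%), with medians of -0.11 and -0.19. At 24 min 31 rose and 1 fell (background 22.3% and 24.5%), with a median of 0.39. The excess at 24 min was therefore present with and without the length trend, and its median was smaller without it. In steady-state RNA the same alternative gave 0 higher and 26 lower and a median of -0.58. Its background shares there are not given here, so the change in count cannot be called particular to the members. In steady-state RNA rho was 0.45 over the members and 0.28 over all genes.

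**Figure D3:**
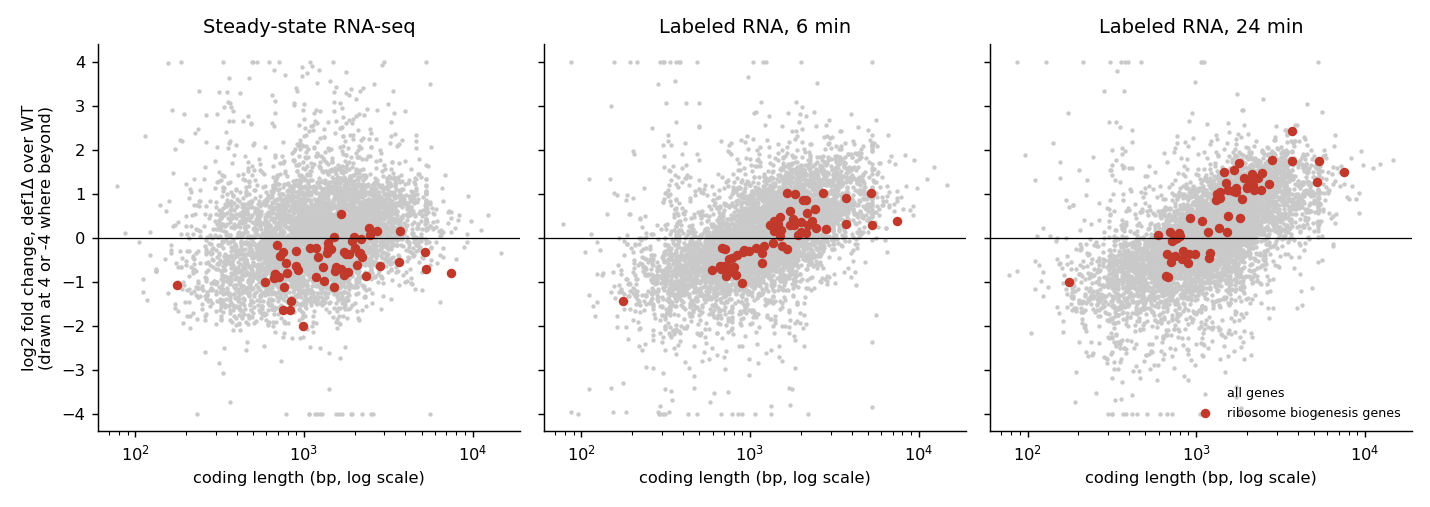
Log2 fold change in *def1Δ* over WT against coding length (log axis) for all genes (gray) and the 58 ribosome biogenesis genes (red), in steady-state RNA and in RNA labeled for 6 and 24 min. Spearman's rho over the members is 0.45, 0.82 and 0.87 in the 3 panels.

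Members with and without PAC were set side by side at 24 min. The 24 with PAC had a median log2 fold change of 1.05, with 16 higher and 0 lower, and the 34 without had a median of 0.46, with 18 higher and 4 lower. Their median coding lengths were 1586 bp with PAC and 1380 bp without. In steady-state RNA the medians were -0.33 with PAC and -0.69 without, with 5 of 24 and 14 of 34 genes lower. These are descriptions, and the difference was not tested.

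Input RNA of ribosome profiling gave a second measure of RNA amount, in cells treated with cycloheximide. Few of the 57 members tested moved in *def1Δ* over WT: 1 rose and 4 fell, with a median of -0.02, against background shares of 14.1% and 9.87% over 6434 genes. *UTP7* rose, with 251, 244 and 275 CPM in *def1Δ*, against 158, 154 and 194 CPM in WT (0.61 ± 0.12, SE, n = 3 each, edgeR adjusted p = 0.00351). *UTP30* fell, with 25.2, 20.4 and 26.1 CPM in *def1Δ*, against 42.1, 39.9 and 40.6 CPM in WT (-0.77 ± 0.12, edgeR adjusted p = 0.000635). *NOP1* fell, with 1257, 1417 and 1367 CPM in *def1Δ*, against 1780, 2214 and 2424 CPM in WT (-0.67 ± 0.15, edgeR adjusted p = 0.00535). In all 3 genes the strains did not overlap. Over the 6 fits that left out 1 *def1Δ* or WT library, *UTP30* lost its call in 0, and *UTP7* and *NOP1* in 5 each. With only the *def1Δ* and WT libraries in the fit, or without 1 of *def1Δ* replicates 1 and 2 or of WT replicates 1 and 2, 0 rose. The count that fell was 2 without *def1Δ* replicate 1 and 1 without *def1Δ* replicate 2. The replicate 3 library held the largest sum of the members in each strain, 21038 CPM in *def1Δ*, 22483 CPM in *dhh1Δ* and 24520 CPM in WT, against 16310 to 18790 CPM in the other 6.

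The other 2 that fell, *RRP7* and *RRP43*, are the members on chromosome III. *RRP7* (YCL031C, 64675 to 65568), a partner of Utp22, had 119, 97.4 and 97.3 CPM in *def1Δ*, against 199, 170 and 140 CPM in WT, a log2 fold change of -0.70. *RRP43* (YCR035C, 191834 to 193018), an exosome ring subunit, had 87.5, 106 and 126 CPM in *def1Δ*, against 197, 165 and 246 CPM in WT, a log2 fold change of -0.93. Across all genes the median in *def1Δ* over WT was -0.99 on chromosome III (163 genes) and -0.95 on chromosome I (91 genes), and between -0.04 and 0.12 on the other 14 nuclear chromosomes. In *dhh1Δ* over WT the medians of chromosomes III and I were -0.04 and 0.00. In steady-state RNA the medians in *def1Δ* were -0.04 and 0.02, and there *RRP7* and *RRP43* had log2 fold changes of -0.31 and -0.25 and did not pass. With the genes of chromosomes I and III left out of the fit, 1 member rose and 2 fell in input RNA. Over these genes, an effect of the chromosome and one of the gene cannot be told apart.

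**Figure D4:**
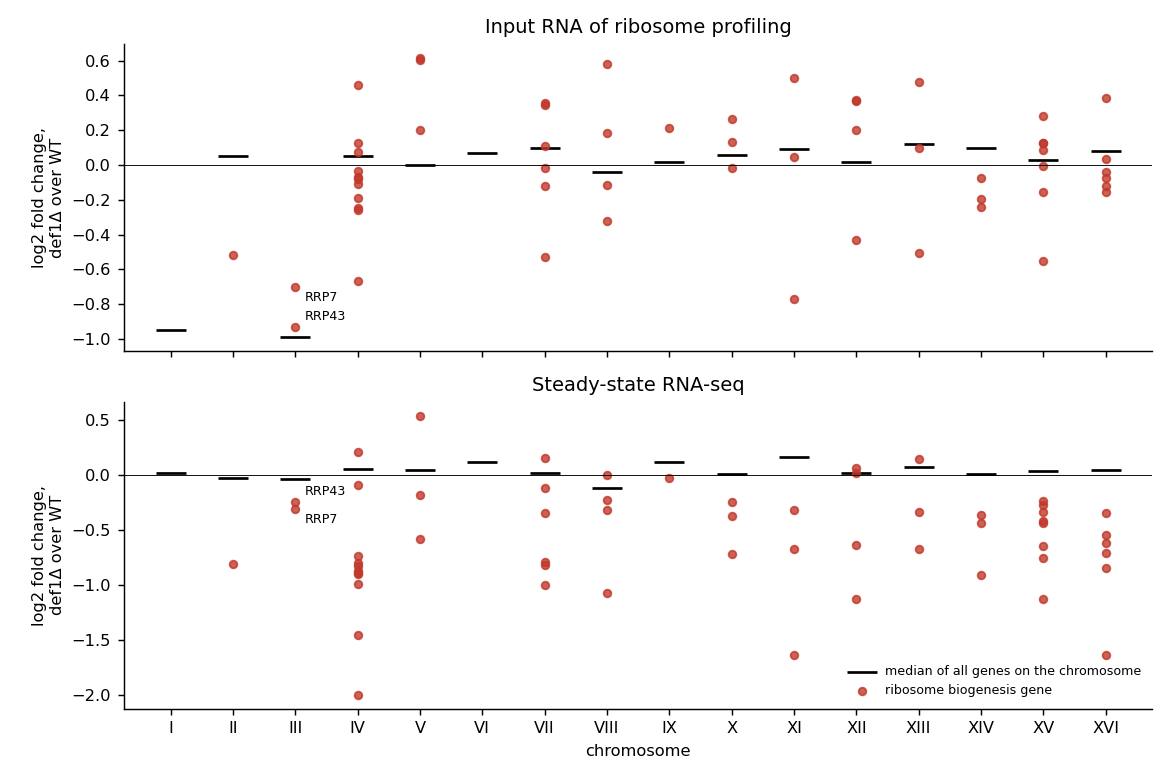
Log2 fold change in *def1Δ* over WT by chromosome, with bars at the median of all genes on a nuclear chromosome and points for ribosome biogenesis genes, in input RNA (top) and steady-state RNA (bottom). In input RNA the medians of chromosomes I and III are -0.95 and -0.99 and *RRP7* and *RRP43* lie near the bar of chromosome III, while in steady-state RNA the bars of chromosomes I and III are at 0.02 and -0.04.

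In *dhh1Δ*, 0 members rose and 1 fell in input RNA over the same WT libraries, with a median of 0.09, against background shares of 13.5% and 9.15%. At an unadjusted p under 0.05 there were 6 higher and 3 lower, and DESeq2 called 1 in each direction. *UTP30* was the gene that fell, with 28.8, 29.0 and 30.2 CPM in *dhh1Δ* (-0.48 ± 0.12, SE, n = 3 each, edgeR adjusted p = 0.00977). It was below all 3 WT libraries. Its call was lost in every fit that left out 1 *dhh1Δ* or WT library. *NOP1* had 1565, 1406 and 1813 CPM in *dhh1Δ*, overlapping WT, and a log2 fold change of -0.42 that did not pass. At the upper end *NOP16* and *NOC4* had log2 fold changes of 0.67 and 0.53 and did not pass.

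Footprints measured how much of these mRNAs was on ribosomes. Here n counts numbered columns, which may be repeat runs of 1 library, so errors and p-values of footprints and efficiency cover only the spread between columns. In *def1Δ* over WT 13 of the 58 fell and 0 rose, with a median of -0.18, against 0.01 for all 5601 genes and background shares of 12.7% lower and 11.8% higher. At an unadjusted p under 0.05, 23 were lower and 7 higher, and DESeq2 called 16 lower and 1 higher. *UTP30* fell most, with 13.6, 14.6 and 17.6 CPM in *def1Δ*, against 39.8, 38.2 and 39.7 CPM in WT (-1.36 ± 0.15, SE, n = 3 each, edgeR adjusted p = 8.29e-05). *NOP19*, a 40S factor, had 13.1, 14.3 and 16.7 CPM in *def1Δ*, against 27.2, 32.2 and 40.1 CPM in WT (-1.18 ± 0.19, edgeR adjusted p = 0.000808). *RRP7* had 44.5, 48.3 and 44.3 CPM in *def1Δ*, against 91.4, 95.8 and 86.1 CPM in WT, and fell by 1.00 on the log2 scale where the median of chromosome III was -0.90. None of these 3 overlapped between strains.

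Of the snoRNP genes *NOP10*, *NOP1* and *NOP56* fell in footprints, with log2 fold changes of -0.95, -0.72 and -0.60. With the length trend removed *NOP10* did not pass (-0.60). The 40S factors *NOP6* and *RRP9* fell by 0.86 and 0.77 on the log2 scale, and the *NOP6* call was lost in 3 of the 6 fits that left out 1 column. Of the genes of 60S assembly *RRP17*, *RRP15*, *NOP53* and *NOP13* fell, and of the exosome genes *RRP46*. No UTP-A or UTP-B gene passed by edgeR, with 3 higher and 1 lower at an unadjusted p under 0.05. *UTP7* had 159, 134 and 124 CPM in *def1Δ*, against 90.4, 78.4 and 106 CPM in WT. The strains did not overlap, but the log2 fold change of 0.60 did not pass (edgeR adjusted p = 0.0117). Of the 19 genes lower in steady-state RNA, 7 were also lower in footprints (36.8% of the 19 and 53.8% of the 13). Over all genes 16.4% were lower in steady-state RNA and 12.7% in footprints. The share of all genes lower in both is not given here, so this overlap cannot be called particular to the members. *NOP1* and *UTP30* were the 2 genes lower in steady-state RNA, input RNA and footprints alike. The share of all genes lower in all 3 is not given here either. The *NOP1* call in input RNA was lost in 5 of the 6 fits that left out 1 library. The footprint count of 13 rests on single columns. It was 5 and 6 without *def1Δ* column 1 or 2, 7 without WT column 2 or 3, and 18 without WT column 1.

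The 3 *dhh1Δ* footprint columns come from 1 labelled sample and give values only. *UTP30* had 20.2, 22.6 and 20.5 CPM there, under all 3 WT columns and above all 3 *def1Δ* columns. *NOP56* and *NOP58* had 485 to 637 CPM and 480 to 569 CPM in *dhh1Δ*, and in WT 788 to 1073 CPM and 675 to 964 CPM. *UTP7* had 77.5 to 104 CPM in *dhh1Δ*, overlapping the WT columns, which had 78.4 to 106 CPM. Summed over the 58 genes, the columns held 8807, 9171 and 8896 CPM in *def1Δ* and 8027, 8725 and 10720 CPM in *dhh1Δ*, against 9515, 10344 and 12519 CPM in WT. By these scaled sums the *dhh1Δ* columns overlapped WT and the *def1Δ* columns did not. Before TMM scaling the 58 held 0.910%, 0.947% and 0.931% of counts in *def1Δ*, overlapping WT with 0.920%, 0.915% and 1.15%.

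**Figure D5:**
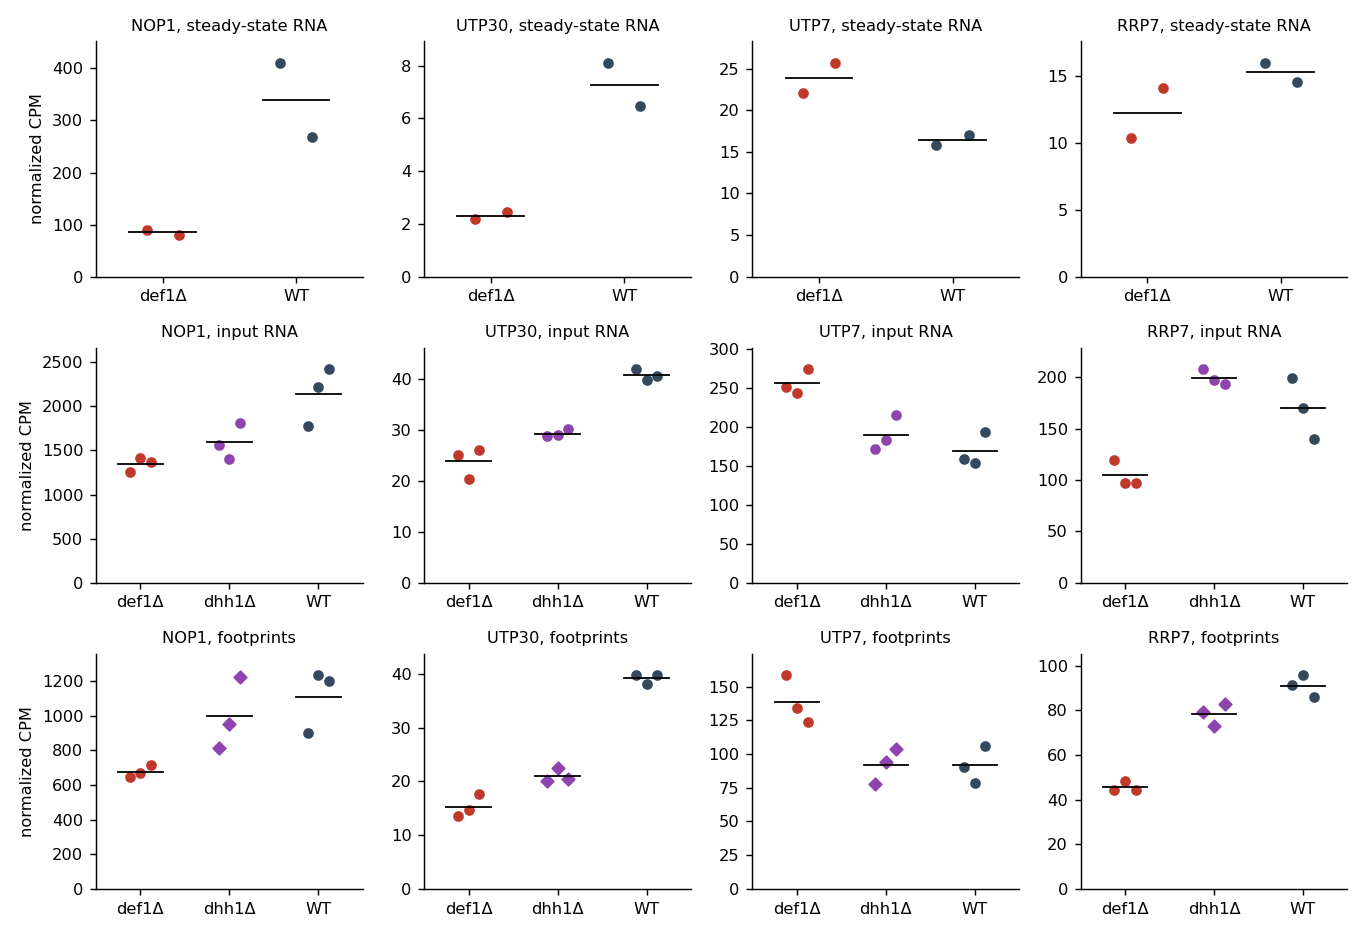
Normalized CPM per library of *NOP1*, *UTP30*, *UTP7* and *RRP7* in steady-state RNA, input RNA and footprints of *def1Δ*, *dhh1Δ* and WT, with bars at the means and diamonds for the 3 columns of 1 *dhh1Δ* footprint sample. *NOP1* and *UTP30* lie below WT and *UTP7* above it in each *def1Δ* library.

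Translational efficiency is the footprint level over the input-RNA level, and its test was the strain by library kind interaction. Of the 57 members tested, 0 were higher and 0 lower in *def1Δ* over WT by edgeR, against 0.216% and 0.0180% of 5560 genes, and DESeq2 called 0. At an unadjusted p under 0.05, 1 was higher and 8 lower, with a median of -0.16 over the members and -0.01 over all genes. The highest was *RRP43*, with a log2 difference of 1.08 ± 0.40 (SE, n = 3 each, edgeR adjusted p = 0.288). Its *def1Δ* footprints were 63.5, 65.5 and 154 CPM, so 1 column was far above the others. The lowest were *NOP16*, *RRP17*, *NOP19*, *RRP46* and *RRP9*, between -0.67 and -0.55. As a level in WT, the log2 ratio had a median of -0.88 over the 57 members and -0.82 over 4850 genes, and ran from -2.54 for *NOP8* to 2.94 for *NOP10*. In WT input RNA *NOP10* had only 25.4, 43.2 and 25.4 CPM, against 271 and 221 CPM in WT steady-state RNA. *NOP1* had 1780, 2214 and 2424 CPM in WT input RNA, against 411 and 269 CPM in WT steady-state RNA. The part of the low *NOP10* input level in its ratio was not tested. *NOP58* had 4 input-RNA counts in all 9 libraries together but 32122 footprints, and only 2 of 6613 genes had under 15 input counts with 1000 or more footprints, so no efficiency was computed for it.

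In footprints and input RNA the wider pathway again lay near the members. Of the 95 other ribosome biogenesis factors 22 fell and 1 rose in footprints (median -0.27), and 6 fell and 2 rose in input RNA (median -0.06). Of the 7 RNA polymerase I subunit genes 2 fell in footprints and 0 passed in input RNA, where at an unadjusted p under 0.05 there were also 0. Stress markers rose in 10 of 12 cases in footprints and in 11 of 12 in input RNA, with medians of 1.85 and 1.36. In RNA labeled for 24 min 57 of the 95 factors rose and 6 fell, with a median of 0.64.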

How the data were processed

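The authors mapped steady-state and RATE-seq reads with STAR to R64 and deposited the estimated counts of RSEM 1.2.28 for each gene, rounded to whole numbers here. For input RNA and footprints the authors deposited whole-number counts per gene. Which of the listed tools made those is not given in the sources used here. *S. pombe* spike-in factors were not used, so a change common to all genes cannot be seen, and the counting strand is not given.

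Libraries were scaled by TMM and tested with edgeR 4.0.16 in R 4.3.3 (quasi-likelihood, a minimum of 15 counts summed over a fit's libraries, Benjamini-Hochberg over all genes, threshold 0.01). The 16 RATE-seq libraries at 6, 9, 24 and 90 min shared 1 fit, as did the 9 input-RNA libraries, so both mutants were compared with the same WT libraries. Efficiency was the strain by kind interaction. CPM levels carry the TMM scaling. Footprint samples are titled as sequencing runs, and each numbered footprint column was counted as 1 replicate of its strain, since columns could not be matched to runs. The steps were tested on simulated data. All replicate pairs differed by more than counting noise. The 12 min libraries of replicate 1 failed the authors' quality control and are not used here.

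Named genes were taken from the 5 highest and 5 lowest members by fold change in each comparison, not all of which are named. They also include the highest and lowest per group by level and, where 5 or fewer members passed, any that passed. Other members named were chosen after their values were seen. Promoter windows of 250 bases were read from the RefSeq R64 genome, and systematic names paired the files' genes with it. Members and lists were chosen with earlier results of these data known. Alternatives were DESeq2 1.42.0, other size factors, no count filter, fits of fewer libraries, each library left out, a replicate block, removal of a length trend (loess, span 0.5) and leaving out chromosomes I and III, the last 2 and the block for footprint columns chosen after seeing the data.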

Additional observations from a re-analysis of the deposited data

Results flagged for a closer look

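The ratio of 6 min to 90 min labeled RNA differed between *def1Δ* and WT, by edgeR's interaction term, for 4 of the 58 genes. That is 6.9% of the members, a smaller share than the 16.7% over all 6485 genes. On the log2 scale the difference was 1.31 for *UTP20*, 0.86 for *NOP1*, -1.39 for *RRP14* and -1.34 for *NOP16*, with *def1Δ* minus WT as its direction. Over the 8 fits that left out 1 library, *UTP20* kept its call in each, while *NOP1* lost it in 3, *RRP14* in 2 and *NOP16* in 7. *UTP20* and *NOP1* differed mostly in their 90 min level. *UTP20* had 138 and 142 CPM in *def1Δ* at 90 min, against 267 and 265 CPM in WT, and *RRP14* had 32.2 and 35.2 CPM in *def1Δ*, against 9.29 and 11.9 CPM in WT.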

How the results depend on the processing

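Changes are relative to other genes, each RATE-seq group had 2 libraries, and low counts limit genes such as *RRP15*, which had 9 and 7 counts in *def1Δ* steady-state RNA, against 19 and 31 in WT. Of the values of single genes under the alternatives, 744 kept direction and call, 89 kept direction only, and 4 turned, all with a length trend removed: *RRP5* at 6 min (-0.007), at 9 min (-0.182) and in the *def1Δ* ratio of 6 to 90 min (-0.472), and *UTP10* in the WT ratio (-0.074). For the counts and medians of the 58 genes, the cause of the moves below was not tested.

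Removing the length trend, chosen after seeing the data, gave 4 higher and a median of -0.106 at 6 min, 6 higher and -0.189 at 9 min, 1 lower and 0.394 at 24 min, and -0.192 at 90 min. It gave a median of -0.387 for the *def1Δ* ratio of 6 to 90 min, 4 higher, 27 lower and a median of -0.372 for the WT ratio, and a median of 0.072 for the difference of the ratios. Leaving out chromosomes I and III, also chosen after seeing the data, gave 2 lower in *def1Δ* input RNA, by its construction, since *RRP7* and *RRP43* lie there. With no count filter beyond 1 count, 1 was higher in steady-state RNA and 1 in footprints, 7 were lower at 24 min, 0 were lower in *dhh1Δ* input RNA, and the medians were 0.031 at 6 min, 0.025 at 9 min, 0.813 at 24 min, -0.398 for the *def1Δ* ratio and -0.172 for the difference. RLE size factors gave 7 lower at 24 min, 4 higher for the difference, and medians of 0.806 at 24 min, -0.055 at 90 min, -0.318 for the WT ratio and -0.011 for the difference. DESeq2 gave 7 lower at 24 min, 6 higher for the difference, 1 higher in *dhh1Δ* input RNA, 1 higher in footprints, and medians of 0.806 at 24 min, -0.055 at 90 min, -0.317 for the WT ratio and -0.012 for the difference. Fits of only the libraries of that labeling time gave 5 higher and 4 lower at 9 min and 17 higher at 90 min, and a fit of only *def1Δ* and WT gave 0 higher in input RNA.

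Leaving out 1 library at a time gave these ranges over the 58 genes. In steady-state RNA 0 to 2 were higher and 0 to 23 lower (median -0.602 to -0.503), with 2 higher without WT replicate 2. At 6 min 6 to 9 were higher and 7 to 12 lower (-0.081 to 0.115), and the median was -0.081 without *def1Δ* replicate 2 and -0.048 without WT replicate 2. At 9 min 9 to 20 were higher and 9 to 17 lower (0.003 to 0.091), with 9 higher without either *def1Δ* library and 13 without WT replicate 2. At 24 min 31 were higher in each fit and 1 to 4 lower (0.862 to 0.910), with 1 lower without WT replicate 2. At 90 min 7 to 10 were higher and 6 to 8 lower (0.010 to 0.071), the lowest counts being without WT replicate 2 for higher and without *def1Δ* replicate 2 or WT replicate 1 for lower. For the *def1Δ* ratio 5 to 11 were higher and 16 to 28 lower (-0.529 to -0.236), with 5 without the 6 min replicate 2. For the WT ratio 3 to 8 were higher and 10 to 12 lower (-0.248 to -0.215), with 3 without the 90 min replicate 1. For the difference 1 to 2 were higher and 0 to 2 lower (-0.276 to -0.017), with 0 lower without 90 min replicate 2 of *def1Δ* or replicate 1 of WT. In *def1Δ* input RNA 0 to 3 were higher and 1 to 4 lower (-0.125 to 0.140), with 3 higher without WT replicate 3. In *dhh1Δ* input RNA 0 were higher and 0 lower by edgeR in each such fit (-0.048 to 0.218). In footprints 0 to 1 were higher and 5 to 18 lower (-0.336 to -0.086), with 1 higher without *def1Δ* column 3. For efficiency 0 passed either way (-0.322 to -0.015).

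The main fits did not pair samples by replicate number. Deviations of same-numbered libraries correlated at 0.003 in steady-state RNA and between -0.012 and 0.22 in RATE-seq. They correlated between -0.574 and 0.579 in input RNA and between -0.261 and 0.247 for footprint columns of the same number. In input RNA each strain pair was positive for replicate 1 (0.372, 0.13 and 0.579) and replicate 3 (0.413, 0.306 and 0.49). Replicate 2 had 0.087, -0.574 and -0.306, so pairing in input RNA was left undecided. With the replicate block 8 were lower at 24 min, 4 were higher for the difference of the ratios, and 3 were higher and 7 lower in *def1Δ* input RNA, while its other counts stayed within 1.5 times. For footprints and efficiency the column number was used as the block, chosen after seeing the data, which gave 14 lower and 0 higher in footprints (median -0.174) and 0 either way for efficiency (median -0.148).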
